A study of Mus musculus with 2 samples.

Results

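The 10 genes described here code for inflammatory cytokines and colony-stimulating factors: Csf1, Csf2, Csf3, Il1a, Il1b, Il6, Il18, Il33, Tnf and Lif. They were chosen by name, each had 1 feature among the 28000 of both libraries, and none was left out. The libraries are single-cell RNA-seq of mouse prostate tumours, 1 library per genotype. DoubleTg (titled hHGFtg-hMETtg-PBCre, a prostatic adenocarcinoma) carried a human HGF transgene expressed throughout the body and a human MET transgene that PB-Cre4, active in prostatic epithelium, switches on by removing a stop cassette. TripleTg (titled hHGFtg-hMETtg-Ctnnb1-PBCre, a prostatic carcinoma) carried both transgenes, the same Cre and 1 Ctnnb1 allele that loses exon 3 on recombination, so that a stabilised β-catenin is made. Both therefore share HGF, MET and Cre, there was no library without transgenes, and the age of the mice is not given in the sources used here. The mice were of a mixed C57BL/6 and C3H SCID background.

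Cells with more than 200 and fewer than 7000 detected genes and under 15% mitochondrial UMIs were kept, where a UMI is a barcode that marks 1 captured mRNA molecule. This left 10598 of 12072 DoubleTg cells with a median of 16761 UMIs, and all 9492 TripleTg cells with a median of 20097 UMIs. The TripleTg file held the number of cells that the study kept after its filter, with at most 14.999% mitochondrial UMIs. The DoubleTg file reached 88.603%, so only the TripleTg file came with this limit already applied. Only 30 cell barcodes were shared between the libraries. Clusters were named from marker genes, and the 10 genes took no part in the clustering. In DoubleTg, 4431 cells were luminal-like, 1860 basal-like, 954 fibroblast-like and 434 macrophage-like. In TripleTg, the same classes held 4698, 1311, 641 and 422 cells. The summed level of 8 basal markers was 15390 UMIs per 1000000 UMIs of the class (CPM) in DoubleTg basal-like cells and 5029 in TripleTg basal-like cells, against 491.8 and 222.3 in the luminal-like cells. No cluster of TripleTg met the marker rule for T and NK-like or B-like cells, although 90 cells led by Cd79a, Mzb1 and Cd79b, genes known from B cells, and 103 led by Pbsn, Gzma and Ccl5 were among those left unnamed. In all, 1962 DoubleTg and 1449 TripleTg cells stayed unnamed, with median depths of 3523 and 2743 UMIs. Median depth was 34262 UMIs in DoubleTg and 25763 in TripleTg luminal-like cells, and 12723.5 and 21454 in basal-like cells. The human MET transgene stood at 560.3 CPM in DoubleTg luminal-like cells and at 26.1 CPM in TripleTg luminal-like cells. In TripleTg it stood at 28.0 CPM in basal-like, 46.4 CPM in fibroblast-like and 1.86 CPM in macrophage-like cells. The human HGF transgene stood at 348.3 and 15.1 CPM in luminal-like and 713.2 and 330.7 CPM in basal-like cells of DoubleTg and TripleTg. The study describes alignment to mm10 with the HGF and MET transgene sequences added and names no separate reference for either library. Why the transgene levels differed was not tested. Ctnnb1 had 349.6 and 237.7 CPM in luminal-like cells, and 3′ tags do not show whether exon 3 was lost. With 1 library each, genotype, animal, tumour grade and library cannot be told apart, and no p-value is given. Intervals are 95% and cover counting error only.

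Colony-stimulating factors act on myeloid cells and their precursors: Csf1 codes for M-CSF, which maintains macrophages, Csf2 for GM-CSF and Csf3 for G-CSF, which drives neutrophil production. Il1a, Il1b, Il18 and Il33 belong to the interleukin-1 family. Il1b and Il18 proteins are cut by inflammasome-activated caspases before release, whereas IL-1α and IL-33 are also stored in epithelial nuclei as alarmins that damaged cells let go. TNF and IL-6 are secreted cytokines that signal largely through NF-κB and STAT3, and LIF is a relative of IL-6 that shares its signalling subunit gp130. In prostate these factors are known from macrophages, from fibroblasts and from stressed or transformed epithelium.

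Promoter sequences of 9 of the 10 genes were available from RefSeq (GRCm38.p6, 250 bases before to 50 bases after the start), Il33 with 2 starts, and Csf3 had no entry. Shown here are those of Il1a and Tnf, the 2 members with the highest levels in TripleTg luminal-like cells, of Il33, the highest in TripleTg basal-like cells, and of Il6, the highest in smooth muscle-like cells of both libraries. They run 5′ to 3′ on the gene's strand, and capitals mark a match on either strand to the κB motif, to the AP-1 motif TGANTCA or to the TCF/LEF motif TCAAAG.
Il1a, chr2:129309923-129310222, minus strand: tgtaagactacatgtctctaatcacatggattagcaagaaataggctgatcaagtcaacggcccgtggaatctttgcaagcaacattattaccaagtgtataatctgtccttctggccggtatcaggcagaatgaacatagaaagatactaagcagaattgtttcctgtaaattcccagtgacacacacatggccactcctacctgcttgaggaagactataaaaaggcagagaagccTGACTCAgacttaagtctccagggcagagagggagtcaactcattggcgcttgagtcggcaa
Tnf, chr17:35201958-35202257, minus strand: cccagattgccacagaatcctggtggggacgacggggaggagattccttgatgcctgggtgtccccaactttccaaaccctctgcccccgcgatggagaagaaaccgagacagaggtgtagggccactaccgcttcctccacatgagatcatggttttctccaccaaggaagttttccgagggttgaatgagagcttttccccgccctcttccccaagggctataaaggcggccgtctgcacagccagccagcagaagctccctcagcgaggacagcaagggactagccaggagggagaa
Il33, first start, chr19:29924863-29925162, plus strand: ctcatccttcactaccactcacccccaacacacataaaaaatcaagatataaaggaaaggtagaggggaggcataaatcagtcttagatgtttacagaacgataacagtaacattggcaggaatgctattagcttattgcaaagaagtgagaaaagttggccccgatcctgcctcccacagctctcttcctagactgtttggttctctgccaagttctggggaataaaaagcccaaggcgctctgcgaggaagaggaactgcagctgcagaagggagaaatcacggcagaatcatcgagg
Il6, chr5:30012864-30013163, plus strand: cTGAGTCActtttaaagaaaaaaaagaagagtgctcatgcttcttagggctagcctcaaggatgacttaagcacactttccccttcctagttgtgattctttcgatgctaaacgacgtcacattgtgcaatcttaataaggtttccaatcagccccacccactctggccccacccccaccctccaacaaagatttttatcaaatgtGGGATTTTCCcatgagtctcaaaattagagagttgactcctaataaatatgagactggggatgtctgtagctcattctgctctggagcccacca

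The κB motif had a match in the promoters of 3 genes (Csf1, Il6 and Lif), the AP-1 motif in 3 (Il1a, Il6 and Lif) and the TCF/LEF motif in 1 (Csf1). Among all 32851 promoters of the same length, 8.46% held a κB match, 7.81% an AP-1 match and 16.0% a TCF/LEF match. No 2 of the matches in these 9 genes overlapped. The windows of Tnf and Il33 held none of the 3, which says only that these letters are not in those bases. On GRCm38 (mm10), the build of the files, Csf2, Csf3 and Lif lie on chromosome 11, Il1a and Il1b lie near each other on chromosome 2 (129299610 to 129309972 and 129364570 to 129371139, minus strand), Csf1 on chromosome 3, Il6 on 5, Il18 on 9, Tnf on 17 and Il33 on 19. Genes on the opposite strand overlap Csf2, Il1a, Il1b and Il18.

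Each gene had few main sources, and these sources differed between the libraries for 6 of the 10 genes. Il1b stayed a myeloid gene: macrophage-like cells were 4.10% of DoubleTg and 4.45% of TripleTg cells and held 76.9% and 69.0% of its UMIs. Il6 stayed stromal, with 53.3% and 49.3% of its UMIs in fibroblast-like cells and 16.2% and 22.0% in smooth muscle-like cells. Il18 stayed luminal, with 81.0% and 76.9% of its UMIs there. Luminal-like cells held the largest share of Lif in both libraries (39.7% and 63.5%, from 41.8% and 49.5% of cells), with a fibroblast-like share of 32.7% in DoubleTg and 12.3% in TripleTg. The largest named holder differed between libraries for Csf1, from fibroblast-like cells (70.2% in DoubleTg) to luminal-like cells (58.4% in TripleTg). It differed for Il1a and Tnf from macrophage-like cells (70.8% and 46.3%) to luminal-like cells (60.4% and 75.7%), which held 38.9% of Tnf in DoubleTg. It also differed for Csf2 from basal-like (34.4%) to luminal-like cells (80.8%), for Il33 from fibroblast-like (55.2%) to basal-like cells (75.0%), and for Csf3 from basal-like (61.4%) to endothelial-like cells (35.4%). These shares move with how many cells of each class were captured, so levels within a class follow.

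**Figure D1:**
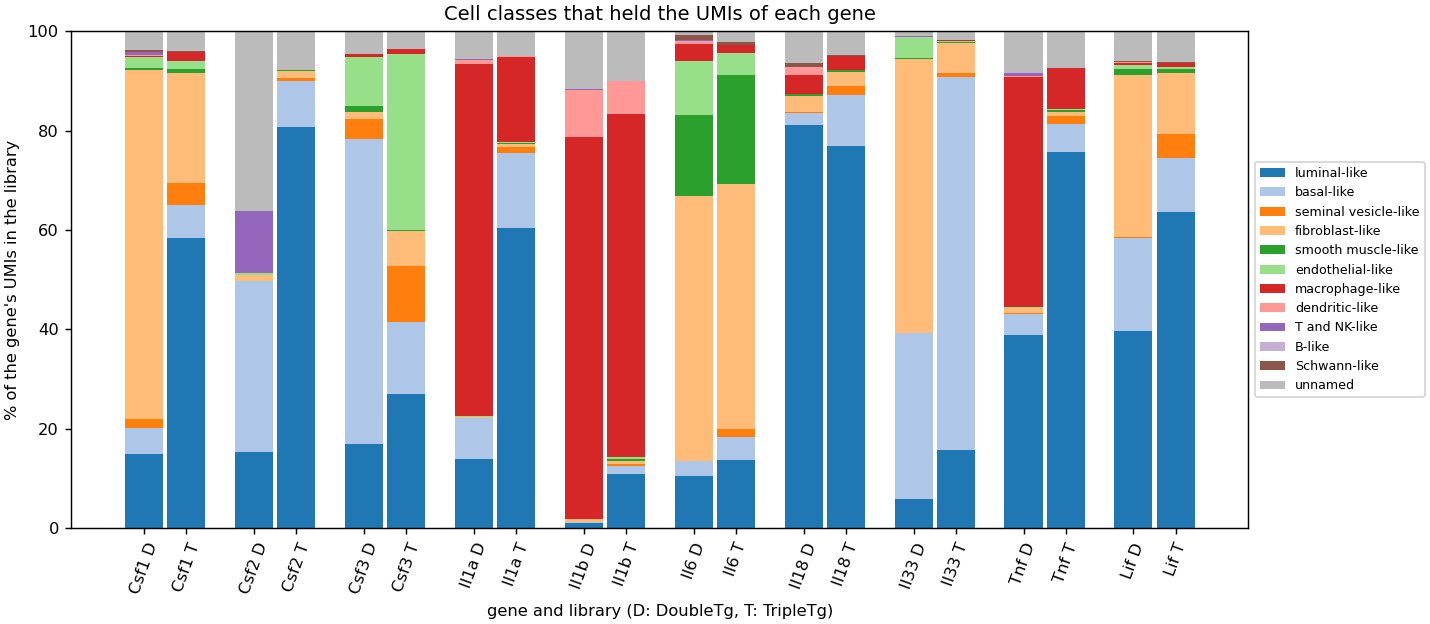
Share of each gene's UMIs (vertical axis, %) held by each cell class (colours; grey, unnamed clusters) in DoubleTg (D) and TripleTg (T). Luminal-like cells held 13.8% of the Il1a UMIs of DoubleTg and 60.4% of those of TripleTg.

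**Figure D2:**
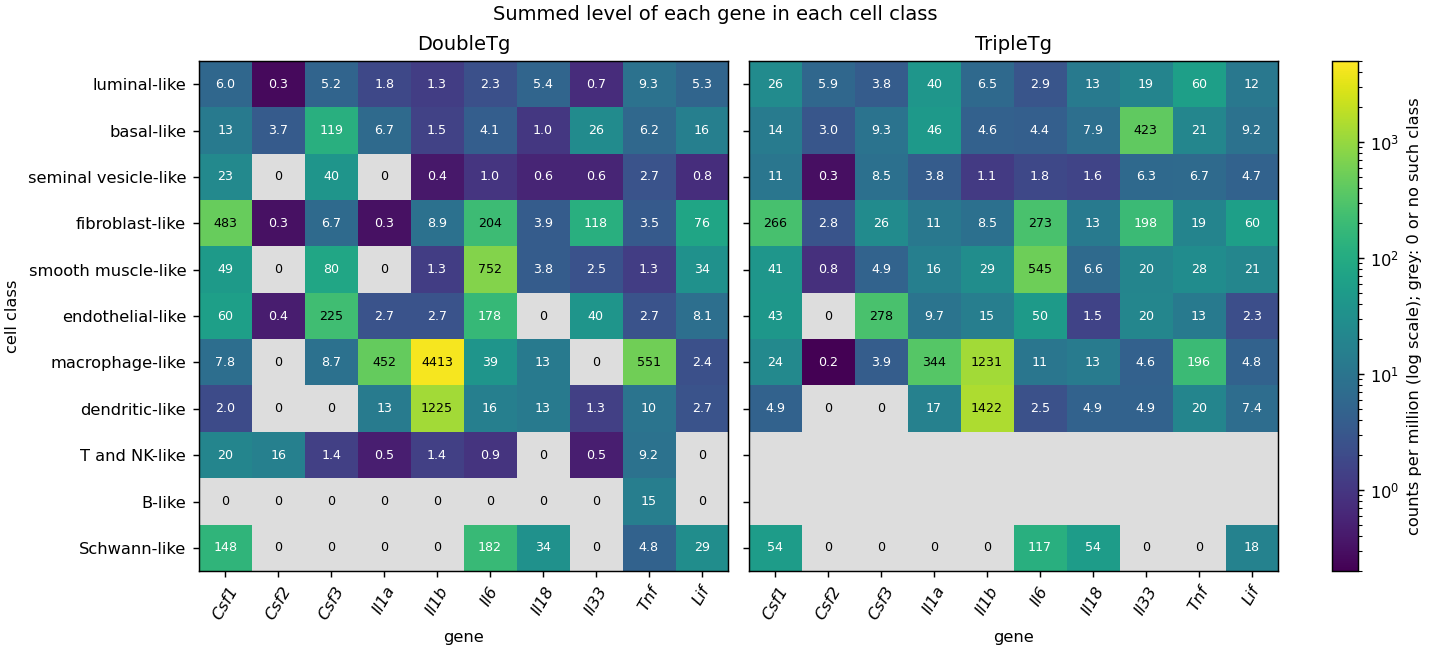
Summed level in CPM (colour, log scale; printed in each cell) of the 10 genes (columns) in the named cell classes (rows) of each library. Il1b was above 1000 CPM only in macrophage-like and dendritic-like cells, and Il33 was highest in fibroblast-like cells of DoubleTg and in basal-like cells of TripleTg.

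Csf3 was the colony-stimulating factor of the DoubleTg basal compartment. Its level there was 119.0 CPM (114.8 to 123.2), against 5.15 CPM in luminal-like cells, 225.3 in endothelial-like cells, 79.8 in smooth muscle-like cells, 39.9 in seminal vesicle-like cells and 8.74 in macrophage-like cells. Both DoubleTg basal-like clusters carried it, at 97.0 CPM in the cluster led by Sult5a1 and Krt14 and at 153.9 CPM in the one led by Aldh3a1. A single luminal-like cluster of 151 cells, led by Gsdmc2 and Gsdmc3, reached 70.4 CPM, and the median over the 9 luminal-like clusters was 2.49 CPM. The smooth muscle value rests on 1 cell, which held 62 of the 63 UMIs, and in the endothelial-like cells 1 cell held 157 of the 501 UMIs and the top 1% of cells 62.9%. In TripleTg, Csf3 stood at 9.31 CPM in basal-like, 3.80 CPM in luminal-like and 277.8 CPM in endothelial-like cells. Among TripleTg fibroblast-like clusters it was highest, at 57.8 CPM, in the cluster led by Col3a1 and Mfap5, which had 15 positive cells of 179.

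With every cell thinned to 5000 UMIs, a Csf3 UMI was found in 17.0% of DoubleTg basal-like cells (15.2 to 18.8%; 294 of 1732) and in 3.67% of TripleTg basal-like cells (2.69 to 4.88%; 45 of 1227). Without thinning, the shares were 26.2% and 7.09%. In luminal-like cells, they were 1.14% and 1.58% after thinning. Expression was uneven from cell to cell: the top 1% of DoubleTg luminal-like cells held 79.5% of that class's Csf3 UMIs, and the top 1% of DoubleTg basal-like cells 31.8%.

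Csf1 was a fibroblast gene in both libraries and was higher in TripleTg than in DoubleTg luminal-like cells. It stood at 482.8 CPM in DoubleTg and 266.1 CPM in TripleTg fibroblast-like cells. In the luminal-like cells it stood at 5.96 and 26.3 CPM, and in the basal-like cells at 13.0 and 13.6 CPM. The TripleTg luminal-like clusters ranged from 4.06 CPM (led by Krt73) to 67.3 CPM in 136 cells led by the interferon-stimulated genes Ifit3, Rsad2 and Ifit1. Macrophage-like cells, which carry its receptor gene Csf1r at 424.8 and 445.0 CPM, held little of the ligand, at 7.84 and 23.6 CPM.

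Csf2 was rare, and its levels rest on few cells. DoubleTg held 279 Csf2 UMIs in 41 cells of the whole library, 96 of them in 11 basal-like cells and 43 in 15 luminal-like cells. TripleTg held 848 UMIs in 199 luminal-like cells, or 5.86 CPM against 0.259 CPM in DoubleTg. All 8 TripleTg luminal-like clusters had some, from 0.594 CPM in the Krt73-led cluster to 10.9 CPM in the cluster led by Wfdc18. Basal-like levels were 3.68 CPM in DoubleTg and 3.03 CPM in TripleTg. Among the lymphoid cells of DoubleTg, a cluster of 110 cells led by Xcl1 and Gzmb stood at 40.1 CPM, from 32 UMIs in 3 cells.

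Il33 was the most basal of the 10 genes in TripleTg. It stood at 423.0 CPM in TripleTg basal-like cells and at 26.2 CPM in those of DoubleTg. The 4 TripleTg basal-like clusters ranged from 51.1 CPM (led by Mt4) through 126.0 CPM (led by Reg3b) and 380.9 CPM (24 dividing cells led by Krt75) to 829.8 CPM in 557 cells led by Ifi202b, Gsdmc2 and Calcb, where Il33 was itself among the 10 leading genes. In that last cluster 433 of 557 cells had an Il33 UMI. At 5000 UMIs per cell, 38.1% of TripleTg basal-like cells had one (35.3 to 40.8%) and 5.54% of DoubleTg basal-like cells (4.51 to 6.73%). Fibroblast-like cells had 118.4 CPM in DoubleTg and 198.4 CPM in TripleTg, where the Col3a1-led cluster reached 366.7 CPM.

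In luminal-like cells Il33 stood at 0.735 CPM in DoubleTg and 19.5 CPM in TripleTg. Free RNA from basal-like cells bears on such values: the DoubleTg luminal level of Il33 was 2.80% of the basal level, and 8 basal markers stood at a median of 2.45% of theirs (1.33 to 22.1%). In TripleTg, the luminal level of Il33 was 4.6% of the basal level, with the basal markers at a median of 1.43% (0.53 to 19.5%). The part of free RNA in either value was not tested.

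Il1a and Tnf were highest in macrophage-like cells of both libraries and stood higher in both epithelial classes of TripleTg than of DoubleTg. Il1a had 451.7 CPM in DoubleTg macrophage-like cells, 6.74 CPM in basal-like and 1.77 CPM in luminal-like cells. In TripleTg the same classes had 344.2, 46.3 and 40.4 CPM. At 5000 UMIs per cell, an Il1a UMI was found in 14.9% of TripleTg luminal-like cells (13.9 to 16.0%) and 0.91% of DoubleTg luminal-like cells (0.65 to 1.24%), and without thinning in 44.4% and 4.56%. The 8 TripleTg luminal-like clusters lay between 13.5 CPM (led by 9530053A07Rik and Tgm4) and 66.0 CPM (led by Krt73), all above the highest of the 9 DoubleTg clusters at 3.61 CPM.

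Tnf had 551.2 CPM in DoubleTg macrophage-like cells, 9.25 CPM in luminal-like and 6.24 CPM in basal-like cells. TripleTg had 196.4 CPM in macrophage-like, 60.2 CPM in luminal-like and 20.7 CPM in basal-like cells. Every TripleTg luminal-like cluster, from 34.1 CPM (Krt73-led) to 95.9 CPM (Ifit3-led), exceeded the highest DoubleTg one at 27.2 CPM, a cluster of 73 dividing cells. At 5000 UMIs per cell, 21.5% of TripleTg luminal-like cells had a Tnf UMI (20.3 to 22.7%) against 3.64% in DoubleTg (3.10 to 4.24%).

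Macrophage RNA was measured beside these epithelial values. In TripleTg luminal-like cells, Il1a stood at 11.7% and Tnf at 30.6% of the macrophage level, while 7 macrophage markers stood at a median of 0.14% (0.087 to 1.11%) and Il1b at 0.53%. In TripleTg, there were 6.24 Il1a UMIs per Il1b UMI in luminal-like cells, 10.1 in basal-like cells and 0.28 in macrophage-like cells. In DoubleTg luminal-like cells, Il1a stood at 0.39% and Tnf at 1.68% of the macrophage level, with the markers at a median of 0.042% (0.017 to 2.16%). The summed level of the 7 markers was 9.84 CPM in DoubleTg and 15.8 CPM in TripleTg luminal-like cells, 9.69 and 24.3 CPM in basal-like cells, and 8943 and 10960 CPM in macrophage-like cells. No marker of the 7 was at 0 in either epithelial class.

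Il1b was lower in TripleTg macrophage-like cells than in those of DoubleTg. Macrophage-like cells had 4413 CPM in DoubleTg and 1231 CPM in TripleTg. The 4 DoubleTg macrophage-like clusters ran from 1490 to 5506 CPM and the 6 TripleTg ones from 480.6 to 2462 CPM, so the clusters overlapped. At 5000 UMIs per cell, 83.3% of DoubleTg (78.2 to 87.6%) and 49.6% of TripleTg macrophage-like cells (44.6 to 54.7%) had an Il1b UMI, with 171 DoubleTg and 25 TripleTg cells left out as too shallow. Dendritic-like cells had 1225 and 1422 CPM. The luminal-like and basal-like sums of Il1b lay between 1.25 and 6.48 CPM, and the Krt73-led TripleTg luminal-like cluster had 16.3 CPM.

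Il18 had low levels in luminal-like cells. Its level was 5.43 CPM in DoubleTg and 13.0 CPM in TripleTg luminal-like cells, and 1.03 and 7.93 CPM in basal-like cells. The cluster led by Krt73, Lce3f and Tchh, genes of cornified and hair-type epithelium, had 37.6 CPM and 760 of the 1877 Il18 UMIs of TripleTg luminal-like cells, and the other clusters lay between 5.74 and 14.4 CPM. Macrophage-like cells had 13.0 and 13.3 CPM. The highest count in any luminal-like cell was 6 UMIs in DoubleTg and 20 in TripleTg, and the top 1% of cells held 14.1% and 17.4% of its UMIs.

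In CPM, Il6 and Lif were highest in stromal classes. Il6 had 752.2 CPM in DoubleTg and 545.2 CPM in TripleTg smooth muscle-like cells, 204.0 and 272.7 CPM in fibroblast-like cells and 178.0 and 50.2 CPM in endothelial-like cells. Schwann-like cells, only 39 and 25 in number, had 181.9 and 117.2 CPM. The luminal-like and basal-like sums lay between 2.33 and 4.36 CPM in both libraries, the seminal vesicle-like ones at 0.955 and 1.80 CPM, and TripleTg luminal-like Il6 was 1.05% of the fibroblast level, with the 7 fibroblast markers at a median of 0.25%. Macrophage-like cells had 39.2 and 10.6 CPM, with the highest level in both libraries in the clusters led by the chemokine genes Ccl4 and Ccl3, at 81.9 and 64.9 CPM.

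Lif had 76.1 and 59.6 CPM in fibroblast-like cells, 15.9 and 9.16 CPM in basal-like cells, and 5.34 and 11.6 CPM in luminal-like cells of DoubleTg and TripleTg. The TripleTg fibroblast-like clusters differed widely, from 3.74 CPM in the Rxfp1-led cluster to 124.5 CPM in the Col3a1-led one. The same Col3a1-led cluster of 179 cells was the highest of the 3 for Csf1 (351.9 CPM), Il6 (512.6 CPM) and Il33 (366.7 CPM).

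**Figure D3:**
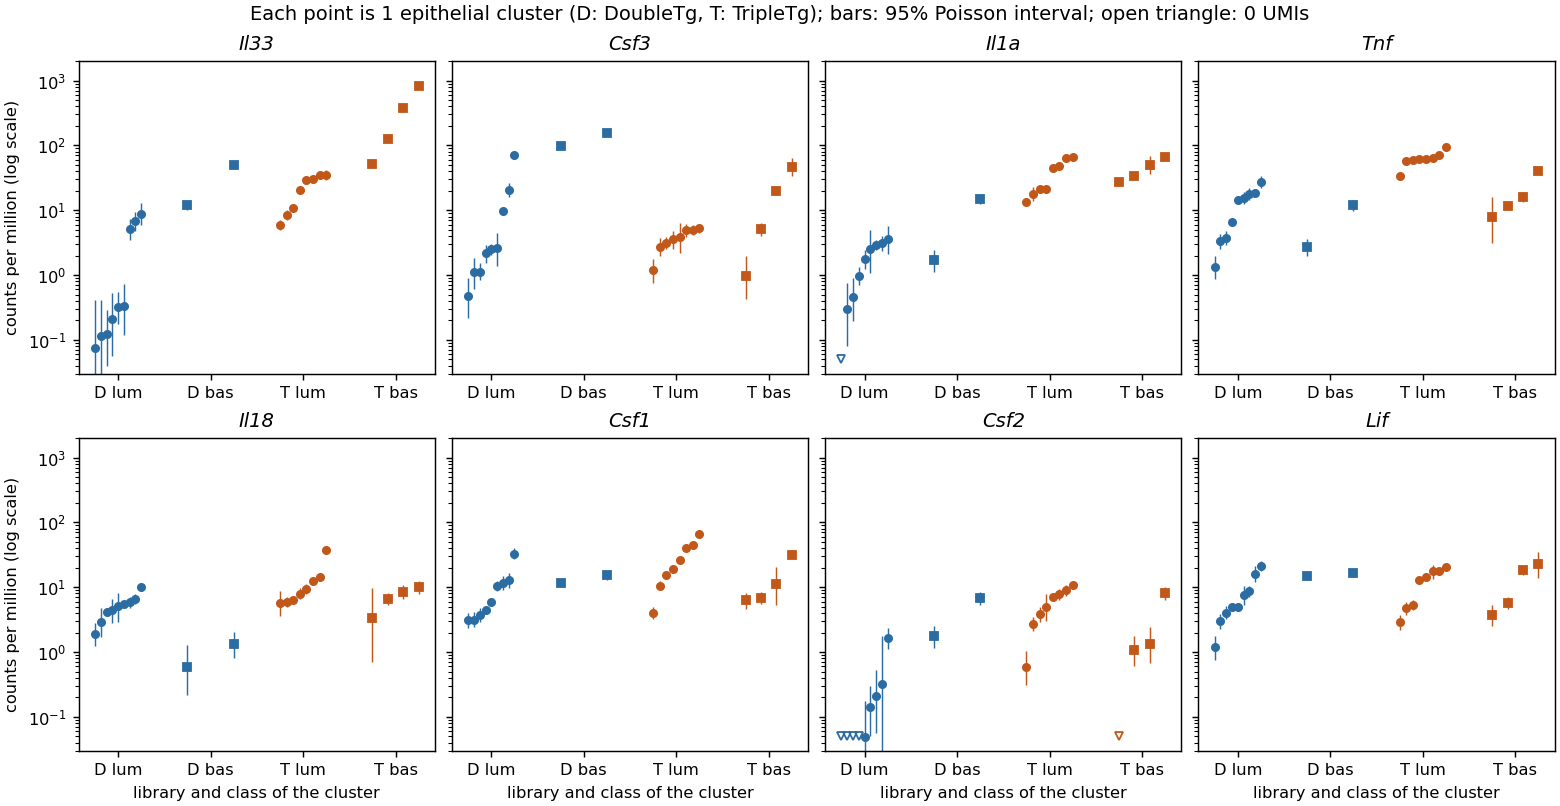
Level (CPM, log scale) of 8 genes in every luminal-like (circles) and basal-like (squares) cluster of DoubleTg (D, blue) and TripleTg (T, orange), with 95% Poisson intervals; open triangles mark clusters without a UMI. The TripleTg luminal-like clusters of Il1a (13.5 to 66.0 CPM) and Tnf (34.1 to 95.9 CPM) lie wholly above those of DoubleTg.

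Basal-like cells were compared with luminal-like cells inside each library, which needs no comparison between animals. A gene counted as different at 2-fold or more with at least 10 UMIs in both groups together. In DoubleTg, 6 of the 10 genes were at least 2-fold higher in basal-like cells, where 19.3% of all 15827 features tested were, and 1 was at least 2-fold lower, where 24.6% were. The median log2 ratio was 1.35 over the 10 genes and -0.03 over all features tested. Csf3 (log2 4.53, 4.42 to 4.64), Csf2 (3.83, 3.30 to 4.38) and Il33 (5.16, 4.88 to 5.45) were among them, Il33 over a luminal level close to the share of the basal markers. Il1a (1.93), Lif (1.58) and Csf1 (1.12) were the others, and Il18 was lower in basal-like cells (-2.39, -3.0 to -1.84). Il6 (0.82), Il1b (0.22, -0.32 to 0.72) and Tnf (-0.57) stayed under 2-fold. Csf1 was under 2-fold, at 0.96, with each cell weighted equally.

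In TripleTg, 2 of the 10 genes were at least 2-fold higher in basal-like cells, against 16.8% of 16477 features, and 1 was at least 2-fold lower, against 10.0%. The median log2 ratio was -0.42 for the 10 genes and 0.04 for all features. Il33 (4.44, 4.38 to 4.50) and Csf3 (1.30, 1.09 to 1.5) were higher, and Tnf was lower (-1.54, -1.66 to -1.42). Csf1 (-0.95), Csf2 (-0.95), Il18 (-0.71), Il1b (-0.49), Lif (-0.34), Il1a (0.20) and Il6 (0.60) were under 2-fold. With TMM factors the ratios of this comparison were all lower by the same amount, Il33 at 4.33 and Csf3 at 1.18. The count of lower genes depended on the setting, from 1 to 4, with Csf1 past 2-fold lower in 6 of 7 alternatives (as far as -1.54) and Csf2 in 5 of 7 (as far as -2.34). Csf3 was at 0.82 with finer clusters and at 0.92 with the members among the variable genes. Csf1, Csf2 and Lif had opposite directions in the 2 libraries, higher in basal-like cells of DoubleTg and higher in luminal-like cells of TripleTg. The Csf2 values rest on few cells. Il1b also had opposite signs, with an interval that includes 0 in DoubleTg.

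**Figure D4:**
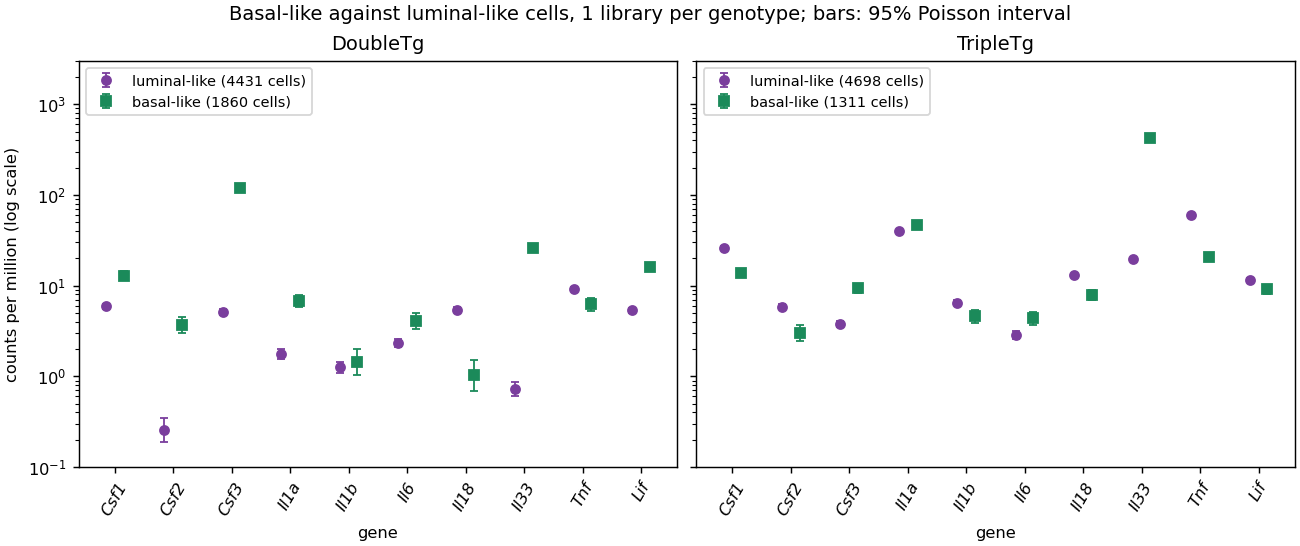
Level (CPM, log scale) of the 10 genes in luminal-like (circles) and basal-like (squares) cells of DoubleTg (left) and TripleTg (right), with 95% Poisson intervals. Il33 was higher in basal-like cells of both libraries (26.2 against 0.735 CPM and 423.0 against 19.5 CPM), whereas Csf1, Csf2, Lif and Il1b changed order between the panels.

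The genotypes were then compared within a class. In luminal-like cells, 8 of the 10 genes were at least 2-fold higher in TripleTg, against 20.4% of 17116 features, and none was at least 2-fold lower, against 18.1%. The median log2 ratio was 2.26 over the 10 genes and -0.05 over all features. The 8 higher genes were Il1a (4.52, 4.35 to 4.69), Csf2 (4.50, 4.06 to 4.98), Il33 (4.73, 4.47 to 5.0), Tnf (2.70), Il1b (2.37), Csf1 (2.14), Il18 (1.26) and Lif (1.12). The Il33 ratio stands over a DoubleTg level close to the share of the basal markers, and its interval covers counting error only. Il1b stood at 0.028% of the macrophage level in DoubleTg and 0.53% in TripleTg luminal-like cells, with the macrophage markers at medians of 0.042% and 0.14%, and the part of macrophage RNA in its ratio was not tested. Il6 (0.30, 0.10 to 0.51) and Csf3 (-0.44, -0.60 to -0.28) were under 2-fold. Markers of other cells also differed in luminal-like cells. The 6 neutrophil markers summed to 2.02 CPM in DoubleTg and 75.0 CPM in TripleTg, and 7 seminal vesicle markers to 79.1 and 1369 CPM. The 7 fibroblast markers summed to 39.3 and 159.6 CPM. The sums of the basal, smooth muscle, dendritic, Schwann, and T and NK markers were lower in TripleTg. The part of such RNA in the 8 higher ratios was not tested. Il18 rests in large part on the Krt73-led cluster, at 37.6 CPM. The median over clusters was 8.72 CPM of Il18 in TripleTg and 5.06 CPM in DoubleTg. Each of the 8 higher genes was past 2-fold under each of the 8 alternatives that recomputed its ratio. No alternative was set to leave the Krt73-led cluster out, so they do not show whether the Il18 call depends on it.

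In basal-like cells, 5 genes were at least 2-fold higher in TripleTg, against 23.1% of 14845 features, and 1 was at least 2-fold lower, against 13.1%. The median was 0.88 for the genes and 0.07 for all features. Il33 (4.01, 3.90 to 4.13), Il18 (2.94, 2.36 to 3.57), Il1a (2.78, 2.55 to 3.01), Tnf (1.73) and Il1b (1.66, 1.14 to 2.22) were higher. The Il1b value rests largely on 1 TripleTg cell, which held 61 of the 146 UMIs of that class. Csf3 was lower, at a log2 ratio of -3.68 (-3.85 to -3.5), a 12.8-fold lower level. Lif (-0.80), Csf2 (-0.28, -0.70 to 0.15), Csf1 (0.08, -0.13 to 0.29) and Il6 (0.09, -0.29 to 0.47) were under 2-fold. Without the highest 5% of doublet scores the Il1b ratio was 0.58.

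In fibroblast-like cells, 5 genes were at least 2-fold higher in TripleTg, against 11.5% of 13687 features, and none was lower, against 7.80%. The median was 1.25 for the genes and 0.06 for all features. Il1a (5.19, 3.58 to 7.51, from 62 against 3 UMIs), Csf2 (3.14, 1.32 to 5.57, from 15 against 3 UMIs), Tnf (2.45), Csf3 (1.96) and Il18 (1.76) were higher, and the members with the highest levels in fibroblast-like cells were under 2-fold, at -0.86 for Csf1, 0.75 for Il33, 0.42 for Il6 and -0.35 for Lif. These depended on the setting: Csf1 was at -1.06 with 5000 UMIs per cell and -1.01 at Leiden resolution 2, and with the members among the variable genes Il33 was at 1.52 and Il6 at 1.19. In TripleTg fibroblast-like cells, Il1a stood at 28.2% and Tnf at 32.1% of the luminal-like level, and 8 luminal markers stood at a median of 28.2% (13.4 to 2683%) of theirs. The upper end is Prom1, at 0.899 CPM in those luminal-like cells and 24.1 CPM in the fibroblast-like cells. In DoubleTg the markers stood at a median of 24.3%. Il18 stood at 100.7% of the luminal-like level in TripleTg and 71.0% in DoubleTg fibroblast-like cells, above the marker medians and inside the marker ranges. The part of luminal RNA in the 5 ratios was not tested.

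In macrophage-like cells, 2 genes were at least 2-fold higher in TripleTg, against 18.4% of 11086 features, and 4 were at least 2-fold lower, against 5.43%. Over all features the median log2 ratio was 0.29 here, and over the 9 genes with enough UMIs it was -0.39. Il6 (-1.89, -2.39 to -1.42), Il1b (-1.84, -1.89 to -1.80), Tnf (-1.49, -1.60 to -1.38) and Csf3 (-1.15, -2.07 to -0.27) were lower, and Csf3 rests on 19 against 29 UMIs and was at -0.27 with 5000 UMIs per cell. Il1a was at -0.39. TMM factors, another scaling, lowered all ratios of this class by the same amount, so that Il1b stood at -2.09 and Csf1 at 1.34. Csf1 was higher (1.59, 0.97 to 2.26), and Il33, with 22 UMIs against 0, was at least 5.03-fold higher (counting 3 UMIs for the group at 0), although at 5000 UMIs per cell its ratio was 0.82. Il33 stood at 1.08% of the basal-like level in TripleTg macrophage-like cells, and the basal markers at a median of 0.79% (0.29 to 39.9%), and the part of basal RNA in this value was not tested. In the same class the summed level of 10 immediate early and heat shock genes was 3402 CPM in DoubleTg and 1614 CPM in TripleTg macrophage-like cells. Their part in the lower cytokine levels was not tested.

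**Figure D5:**
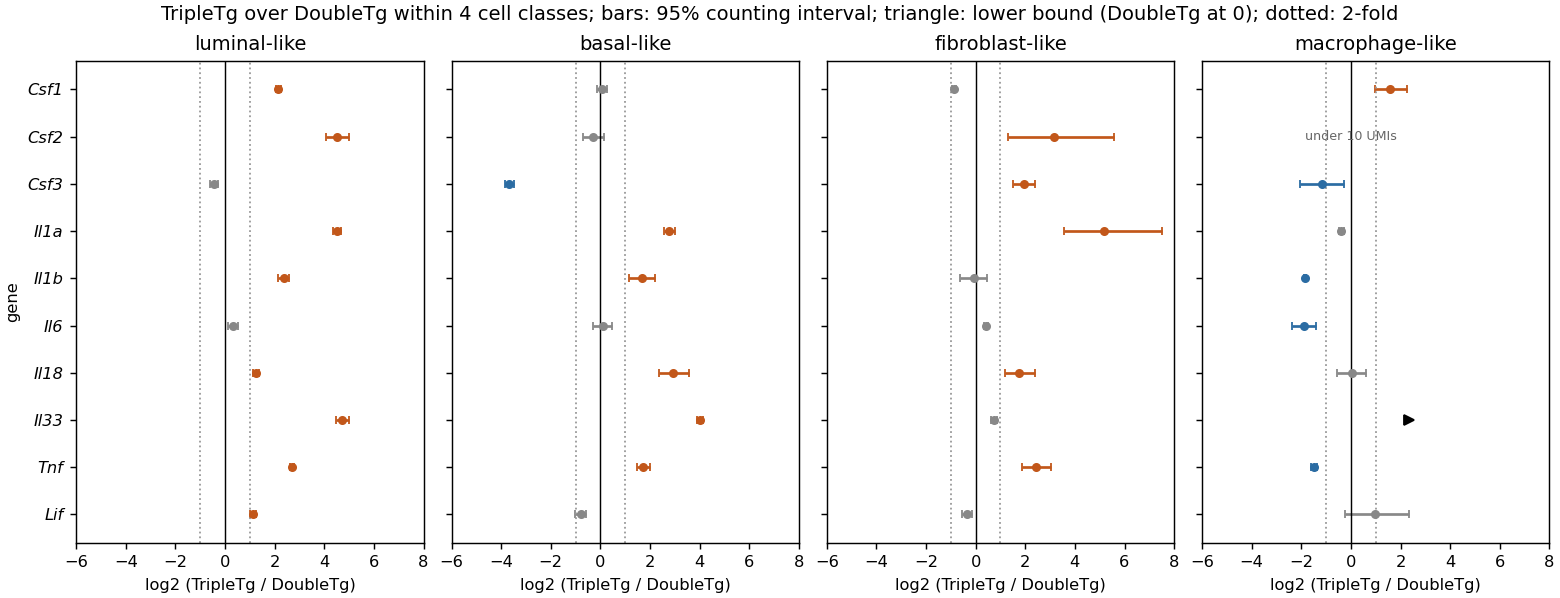
Log2 ratio of TripleTg over DoubleTg for the 10 genes in 4 cell classes, with 95% counting intervals; orange and blue mark ratios of at least 2-fold, and the triangle a lower bound. Tnf was higher in TripleTg luminal-like cells (2.70) and lower in TripleTg macrophage-like cells (-1.49).

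Smooth muscle-like (66 and 101 cells) and endothelial-like cells (277 and 243) were small classes, and only the ratios of their most abundant members are given. Markers of other cells differed between the libraries in both. The summed level of 6 neutrophil markers was 13.5 CPM in DoubleTg and 1914 CPM in TripleTg endothelial-like cells, and that of 6 endothelial markers 6844 and 4573 CPM. In smooth muscle-like cells the 7 fibroblast markers summed to 791.5 and 4679 CPM. Their part in the ratios was not tested. In endothelial-like cells the log2 ratio of TripleTg over DoubleTg was 0.30 (0.14 to 0.47) for Csf3, with 62.9% of the DoubleTg and 34.2% of the TripleTg UMIs in the top 1% of cells, and -1.83 (-2.12 to -1.54) for Il6. In smooth muscle-like cells it was -0.46 (-0.63 to -0.30) for Il6. Dendritic-like Il1b had a ratio of 0.22 (0.08 to 0.35) with 41 TripleTg cells.

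The partner genes of these cytokines were taken as lists and are read against the same shares of all features. Of 15 receptor genes, 7 were at least 2-fold higher in TripleTg luminal-like cells, against 20.4% of all features, and 1 lower, against 18.1%. Their median log2 ratio was 0.95, and they summed to 185.5 CPM in TripleTg and 163.3 CPM in DoubleTg. In basal-like cells 6 were higher (23.1%) and 2 lower (13.1%), with a median of -0.185 and sums of 184.2 and 262.4 CPM. Il1r1, the signalling receptor for both IL-1 forms, was higher in TripleTg luminal-like cells (62.5 against 14.3 CPM, log2 2.13), as were Il18rap (3.0) and Csf2rb2 (2.90). Among the receptor genes, Il1rl1, which codes for the IL-33 receptor, was near 0 in epithelium (0.214 CPM in TripleTg and 0.036 CPM in DoubleTg luminal-like cells) and stood at 11.5 CPM in DoubleTg and 2.02 CPM in TripleTg fibroblast-like cells. The G-CSF receptor gene Csf3r had 19.0 and 20.1 CPM in macrophage-like cells.

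Il1rn, which codes for the secreted IL-1 receptor antagonist, was also higher in TripleTg epithelium. It had 176.7 CPM in TripleTg and 8.49 CPM in DoubleTg luminal-like cells (log2 4.38, 4.30 to 4.46), and 111.7 CPM in TripleTg basal-like cells (2.49). It was also the gene whose level was most like that of Il1a over 60 clusters of both libraries (Pearson r = 0.932 on log2(CPM + 1)). Of the other antagonists, 2 were lower in TripleTg luminal-like cells, where 18.1% of all features were. Il18bp, which binds IL-18, had a log2 ratio of -2.72, and Sigirr, an inhibitory receptor of the family, -2.07.

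Among 8 inflammasome and processing genes, 6 were at least 2-fold higher in TripleTg basal-like cells, against 23.1% of all features, and none lower (13.1%). The median log2 ratio was 2.19, with Casp1, Nlrc4, Nlrp3 and Aim2 at 17 to 31 UMIs in TripleTg and 0 to 2 in DoubleTg. The summed level of the 8 genes differed little, at 80.2 CPM in TripleTg and 67.8 CPM in DoubleTg. Casp1, the caspase that cuts IL-1β and IL-18, had 31 UMIs in TripleTg and 0 in DoubleTg basal-like cells, or 0.979 CPM in TripleTg against 18.2 CPM in its macrophage-like cells. The macrophage markers stood at a median of 0.20% of their macrophage level in TripleTg and 0.045% in DoubleTg basal-like cells, and the part of macrophage RNA in these counts was not tested. In luminal-like cells 3 were higher, against 20.4% of all features, and 1 lower, against 18.1%. The sensor gene Nlrc4 stood there at 6.05 CPM in TripleTg against 0.042 CPM in DoubleTg (log2 7.17, from 875 and 7 UMIs). Of 6 NF-κB and STAT3 feedback genes, 2 were higher in TripleTg luminal-like cells (Nfkbiz 2.07, Tnfaip3 1.84), against 20.4% of all features. In the same cells 1 was lower (Bcl3, -1.19), against 18.1%. In basal-like cells 2 were lower, Socs3 (-1.26) and Nfkbia (-1.13), against 13.1% of all features. In macrophage-like cells 3 were lower, against 5.43%, including Socs3 (-1.58) and Zfp36 (-1.40), whose product destabilises cytokine mRNAs.

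Among 5 related ligands with a feature, Il11, a gp130 cytokine, was highest in stromal classes, with 286.2 and 127.0 CPM in fibroblast-like and 182.4 and 29.6 CPM in smooth muscle-like cells of DoubleTg and TripleTg. It had 7.51 and 3.0 CPM in basal-like and 0.831 and 0.961 CPM in luminal-like cells. In TripleTg, 4 of the 5 were at least 2-fold higher in basal-like than in luminal-like cells, against 16.8% of all features. Among them was Clcf1 (42.6 against 13.4 CPM). Of the 10 immediate early and heat shock genes, none was at least 2-fold higher in TripleTg in luminal-like, basal-like, fibroblast-like or macrophage-like cells. Of all features, 20.4%, 23.1%, 11.5% and 18.4% were higher there. In that order 2, 1, 2 and 3 of the 10 genes were lower, against 18.1%, 13.1%, 7.80% and 5.43% of all features. Their median log2 ratios were -0.26, -0.56, 0.07 and -0.89.

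Over the same 60 clusters, the genes most like each cytokine were, for Il1b, Nlrp3 (r = 0.963), Plbd1 and Ptafr; for Tnf, Il1a (0.829), Zc3h12a and Gas2l3; and for Il6, Lrrc32 (0.867), Col15a1 and Prkg1. For Il33 they included Pcdh7 (0.852) and Cyp1b1, for Csf1 Bicc1 (0.797), Fxyd6 and Ugdh, and for Csf3 Cav1 (0.748), Hoxd8 and Nes. For Lif they were Ctgf (0.776), Vasn and Rnd3, for Il18 Ctsh (0.778), Gusb and Rnf149, and for Csf2 Ankrd54 (0.616), Lin7c and Rcc2. These correlations are descriptions over clusters that share libraries and depth.

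Members were also counted together in single cells. At 5000 UMIs per cell, 191 of 4566 TripleTg luminal-like cells had both an Il1a and a Tnf UMI, against 146.4 if the genes were independent, whereas Il1b and Tnf shared 20 cells against 30.5. In TripleTg basal-like cells, Il1a and Il33 shared 117 of 1227 cells against 81.1. In fibroblast-like cells, Il6 and Lif shared 42 cells of 624 in DoubleTg against 23.5, and 34 of 361 in TripleTg against 18.3. In DoubleTg basal-like cells, Csf3 and Lif shared 34 cells of 1732 against 19.2, and Il33 and Lif shared 2 against 6.26. Clusters within a class differ in depth and composition, and their part in these counts was not tested.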

How the data were processed

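Single-cell RNA-seq of 2 prostate tumour libraries was analysed from the authors' deposited matrices of UMI counts (10x 3′ chemistry, mm10 with transgene sequences added), which hold raw counts per gene and cell. The submitters' processing notes name Cell Ranger 6.0.2, and 1 matrix header names 6.1.1. Depth per library is given with the results. The members and gene lists were chosen with earlier results of these data known, and the thresholds for naming clusters were set after the clusters were seen.

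Cells with more than 200 and fewer than 7000 genes and under 15% mitochondrial UMIs were kept, with no further doublet removal. For DoubleTg this leaves more cells than the study states. Each library was clustered with scanpy 1.11.5 (2000 variable genes without the members and their partner lists, 20 components, 15 neighbours, Leiden resolution 1), and immune clusters were clustered again. A class took its name, with the ending "-like", from its markers. UMIs were summed per class and given as CPM (UMIs of the gene over all UMIs of the class, times 1000000) with exact Poisson intervals. Shares have Clopper-Pearson intervals, and ratios have conditional binomial intervals. All are at 95% and were computed with scipy 1.17.1. They cover counting error only, and PCR copies were removed only as far as UMIs mark them. A ratio counted as different at 2-fold or more with at least 10 UMIs in both groups together, and a group at 0 was set to 3 UMIs. With 1 library per genotype there was no test, and no p-value was computed from cells. The ratio code was tested on simulated data.

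Named were all 10 members, up to 4 genes per partner list and comparison with the largest ratios, and the 3 genes most like each member over 60 clusters, of which 1 is not reported here. Csf1r, Csf3r, Il1rl1, Il11 and Prom1 are also given where outside that rule, chosen after their values were seen. The alternatives were thinning to 5000 UMIs, equal weight per cell, TMM factors (edgeR 4.0.16), members among the variable genes, Leiden resolution 2, a mitochondrial limit of 10%, doublet scores, a mean of at least 5 CPM, and counting a DoubleTg cluster as luminal-like.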

Additional observations from a re-analysis of the deposited data

Results flagged for a closer look

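The ratio of basal-like over luminal-like cells had opposite directions in the libraries for Csf1, Csf2 and Lif, being above 0 in DoubleTg and below 0 in TripleTg with counting intervals that leave out 0. The log2 ratio in TripleTg minus that in DoubleTg was -2.06 for Csf1, -4.78 for Csf2 and -1.92 for Lif. Csf2 rests on few cells, in DoubleTg on 96 UMIs in 11 basal-like and 43 UMIs in 15 luminal-like cells. In TripleTg the top 1% of cells held 90.6% of the basal-like and 68.6% of the luminal-like Csf2 UMIs. For Lif the TripleTg ratio was only -0.34, and basal-like clusters (3.68 to 22.4 CPM) overlapped luminal-like ones (2.92 to 20.5 CPM). The intervals do not cover such differences between cells. With 1 library per genotype these differences were not tested.

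Csf2 stood at 145.5 CPM in an unnamed DoubleTg cluster of 50 cells whose leading genes include Atp6v1g3 and Foxi1, which enters no comparison of the report. All 95 of its UMIs came from 1 cell.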

How the results depend on the processing

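No ratio of at least 2-fold changed sign under any alternative run, and the counts kept within 1.5 times except as follows. The number of members at least 2-fold lower in basal-like than luminal-like cells of TripleTg was 1 and became 4 at 5000 UMIs per cell, 3 with equal weight per cell, 3 with TMM factors, 3 with the members among the variable genes, 2 at Leiden resolution 2 and 4 without the highest 5% of doublet scores. The number higher there was 2 and became 1 with the members among the variable genes and 1 at Leiden resolution 2. In DoubleTg the number lower was 1 and became 0 with a mean of at least 5 CPM. For TripleTg over DoubleTg basal-like cells, the number lower was 1 and became 2 at 5000 UMIs, 3 with the members among the variable genes, 2 at Leiden resolution 2 and 2 without the highest doublet scores, and the number higher was 5 and became 3 with a mean of at least 5 CPM. In fibroblast-like cells the number lower was 0 and became 1 at 5000 UMIs, 1 with the members among the variable genes and 1 at Leiden resolution 2. In macrophage-like cells the number higher was 2 and became 1 with a mean of at least 5 CPM. The filter tests fewer genes by construction, and the cause of the other changes was not tested. The doublet caller marked no TripleTg cell, so leaving out its calls was run for the DoubleTg basal comparison alone. The highest 5% of scores and the cluster counted as luminal-like were chosen after seeing the data. No paired analysis was possible because each genotype has 1 library. Leaving out a replicate was not possible.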

Other observations

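Some clusters left unnamed held members at high levels, and they enter no comparison. In TripleTg, 61 cells led by Retnlg, S100a8 and S100a9, genes known from neutrophils, had 221.2 CPM of Il1b, with a UMI in 22 cells. In DoubleTg, 60 cells led by Ccl22, Il1b and Cd72 had 769.8 CPM of Il1b, which is itself among the genes that lead them. The DoubleTg cluster of 50 cells whose leading genes include Atp6v1g3 and Foxi1, genes known from proton-pumping ionocytes, had 202.1 CPM of Csf3 from 132 UMIs in 17 cells. In TripleTg, 460 cells with a median of only 2503.5 UMIs, led by Gm26917 and Gm26870, had 158.5 CPM of Tnf, with a UMI in 149 cells.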
